A study of Danio rerio with 12 samples.

Results

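The iron-handling genes examined here were 7 zebrafish genes: tfa, tfr1a, tfr1b and slc11a2 for uptake, fth1a for storage, slc40a1 for export and hamp for hormonal control. They are a list of named genes, matched through the RefSeq accession of each array probe and chosen with earlier results of these data known. All 7 had at least 1 probe that could be tested, with 23 probes among them, out of 12616 genes tested on the array. The gills of adult zebrafish (Danio rerio) were compared between untreated fish and fish held for 96 h with CuO nanoparticles at 0.2 mg/L, ZnO nanoparticles at 4.8 mg/L or NiO nanoparticles at 17.5 mg/L. Each of the 4 groups had 3 samples, and each sample pooled 10 fish. Per the labels' protocols all fish went unfed during the exposure, and the sources name neither strain nor sex. The 3 materials were each given at 1 dose and the doses differ, so differences between exposed groups are differences between those dosed groups.

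Vertebrate cells take up iron either bound to transferrin, through the transferrin receptor, or as the free ferrous ion, through the metal transporter Slc11a2. Iron that is not used at once is stored inside ferritin shells or leaves the cell through ferroportin, the product of slc40a1 and the known cellular iron exporter of vertebrates. Hepcidin, a small hormone made mainly by the liver, binds ferroportin and brings about its removal from the membrane. In fish the gill is a site where metals in the water meet the blood, alongside the intestine. In mammals much of the control over ferritin, transferrin receptor and ferroportin acts on translation or stability of the messages, and the arrays measure RNA only.

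Ferroportin RNA (slc40a1) was higher in all 3 exposed groups than in controls, by 3.87-fold under CuO, 3.16-fold under ZnO and 3.99-fold under NiO. All 9 exposed arrays lay above all 3 control arrays, which held for 13.0% of all genes tested. The NiO call was lost without the 4 arrays low in eye transcripts, where 2 of all genes were called higher and 3 lower under NiO. Read by the column names of the deposited series table, slc40a1 was called in no comparison, and neither was any other of the 12616 genes. The ferrous iron transporter slc11a2 was higher under ZnO, by 2.2-fold, on 1 of its 3 probes, and that call depended on the scaling and on single arrays. The ferritin heavy chain fth1a, both transferrin receptors, transferrin tfa and hepcidin hamp passed the test in no comparison. Transferrin and hepcidin varied over the arrays together with liver and pancreas transcripts, and within-group spread for these 2 genes was wide.

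Throughout, a level is log2 of the processed spot intensity minus the 75th percentile of the same array, so a level of 0 is the 75th percentile and each step of 1 is a doubling. Levels of different probes cannot be set against each other. A gene was called where its adjusted p in limma, with Benjamini-Hochberg adjustment over the 12616 genes, was under 0.05. Where probes were tested on their own, the adjustment ran over the 37130 probes tested. Groups of 3 pools share 1 estimate of the spread in a single fit. The arrays had 75.5 to 88.4% of their non-control spots well above background, 0 saturated spots, and a 75th percentile of processed intensity between 1390 and 3319. Correlations between arrays of a group ran from 0.820 to 0.967.

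The samples also carried transcripts of other tissues, which bears on every comparison below. Of the gill epithelium markers, 8 of 14 tested were well above background on all 12 arrays, among them the gill regulators gcm2 and foxi3a, and the others on at least 10. Their levels were uneven. On control 3, CuO 3 and NiO 2, gcm2 was at -6.80, -5.48 and -5.03, against -2.93 to 0.94 on the other 9 arrays. The markers foxi3a, rhcga and ca15a also had their lowest levels on these 3 arrays. Not all of the list was low there. On the same arrays cdh1 was at 2.78, 2.88 and 3.06, krt5 at 3.71, 3.63 and 4.07, and atp1a1a.1 at 2.68, 3.31 and 3.75. These levels lay within the range of the other 9 arrays for each gene. Oocyte markers (22 tested) had a median level of 3.98 to 4.15 on the 3 control arrays and 2.61 on NiO 1, against -5.69 to -3.79 on the other 8 exposed arrays. Some list members did not follow this median. On CuO 3, NiO 2 and NiO 3, piwil1 was at 1.78, -0.01 and 0.32, against 0.13 to 0.54 in controls and -6.64 to -0.48 on the other exposed arrays. On the same arrays sycp3 was at -1.92, -2.52 and -2.64, above its control levels of -6.42 to -3.70. Liver markers (26 tested, 24 of them well above background on all 12 arrays) had a median level of 1.53 to 4.10 on 11 arrays and -2.75 on ZnO 1. Eye markers were low, with medians of -6.59 to -6.29, on control 3, CuO 3, ZnO 1 and NiO 2, which include the 3 arrays low in gcm2. In pooled tissue, fewer cells of a type and less RNA per cell cannot be told apart.

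Over the whole array, 25.1% of genes were called under CuO, 25.7% under ZnO and 22.2% under NiO, in either direction. Of the 7 iron genes, 1 was called under CuO, 2 under ZnO and 1 under NiO, all of them higher. The corresponding background shares of genes called higher were 11.4%, 13.8% and 10.1%. The median difference from control over the 7 genes was 0.19, -0.08 and -0.44 on the log2 scale for CuO, ZnO and NiO, against 0.42, 0.32 and 0.27 over all genes. Controls are shared by the 3 comparisons.

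**Figure D1:**
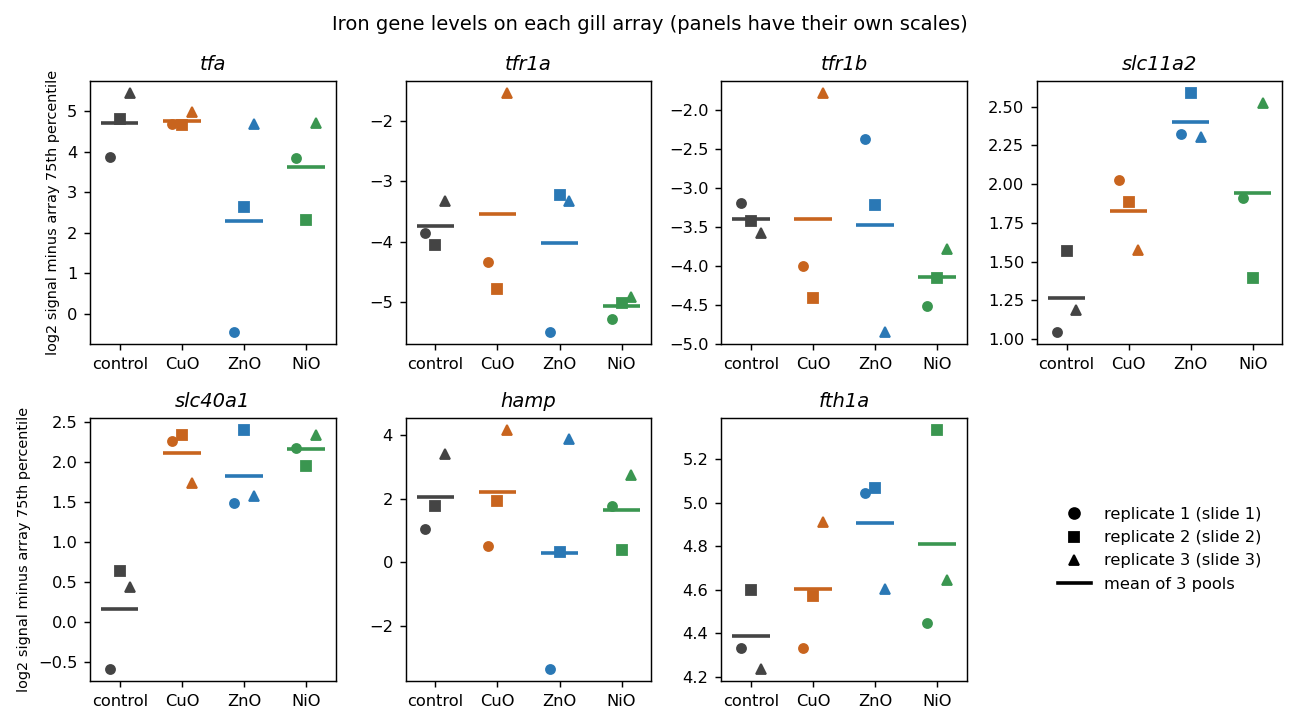
Level of each of the 7 iron genes (log2 processed intensity minus the array's 75th percentile, vertical axis) on each of the 12 arrays, with 1 panel per gene, 1 point per array, a bar at the group mean and a scale of its own for each panel. The 9 exposed arrays sit above the 3 control arrays for slc40a1, and hamp and tfa each have their lowest point on ZnO 1.

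The gene with the clearest difference was slc40a1, the iron exporter. Its level was -0.59, 0.63 and 0.43 on control arrays 1 to 3. It was 2.26, 2.33 and 1.74 on the CuO arrays, 1.48, 2.40 and 1.57 on the ZnO arrays, and 2.17, 1.95 and 2.34 on the NiO arrays. No exposed array overlapped the controls: the highest control array was at 0.63 and the lowest exposed array, ZnO 1, at 1.48. Of all genes tested, 13.0% had all 9 exposed arrays above all 3 control arrays.

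The mean slc40a1 level was 0.16 ± 0.66 (SD, n = 3) in controls. It was 2.11 ± 0.33 with CuO, 1.82 ± 0.51 with ZnO and 2.15 ± 0.20 with NiO. The difference from control was 1.95 under CuO (SE 0.38, 95% interval 1.1 to 2.80, limma adjusted p = 0.00601). It was 1.66 under ZnO (95% interval 0.81 to 2.51, adjusted p = 0.0127) and 1.99 under NiO (95% interval 1.14 to 2.85, adjusted p = 0.00834). A call in the higher direction in all 3 comparisons was made for 713 genes, 5.65% of those tested, and slc40a1 was the 1 member among them. A call in the lower direction in all 3 was made for 9.43% of genes and for 0 of the 7.

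Each slide carried 1 array of every group, so the difference could also be read slide by slide. For CuO it was 2.85, 1.70 and 1.30 on slides 1 to 3, for ZnO 2.07, 1.77 and 1.14, and for NiO 2.77, 1.32 and 1.90. All 9 slide-wise differences were above 0, and the slide 1 values, taken against the lowest control array, were the largest. Within each slide the groups always held the same array position, so position and group cannot be told apart.

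The exposed groups ranked NiO, CuO, ZnO by mean slc40a1 level, and no neighbours in that order differed beyond their spread. CuO exceeded ZnO by 0.29 (95% interval -0.56 to 1.15) and differed from NiO by -0.04 (95% interval -0.89 to 0.81). ZnO differed from NiO by -0.34 (95% interval -1.19 to 0.52). The intervals leave room for about a doubling of CuO over ZnO and of NiO over ZnO, and for less in the opposite directions. Between CuO and NiO they leave room for somewhat less than a doubling either way. Between exposed groups 0 of 12616 genes were called by limma, with 1252, 784 and 620 genes at an unadjusted p under 0.05 for CuO against ZnO, CuO against NiO and ZnO against NiO.

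The array carries 4 probes for slc40a1, and 3 of them gave matching differences. With every probe tested on its own, the second gave 2.1, 1.65 and 2.22 for CuO, ZnO and NiO and the third 2.07, 1.57 and 2.22, with adjusted p between 0.00790 and 0.0359. The fourth lay near background, at levels of -7.29 to -4.01 and well above background on 9 of 12 arrays. Its differences were 0.24, 0.03 and 0.93, with adjusted p of 0.836, 0.984 and 0.433.

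**Figure D2:**
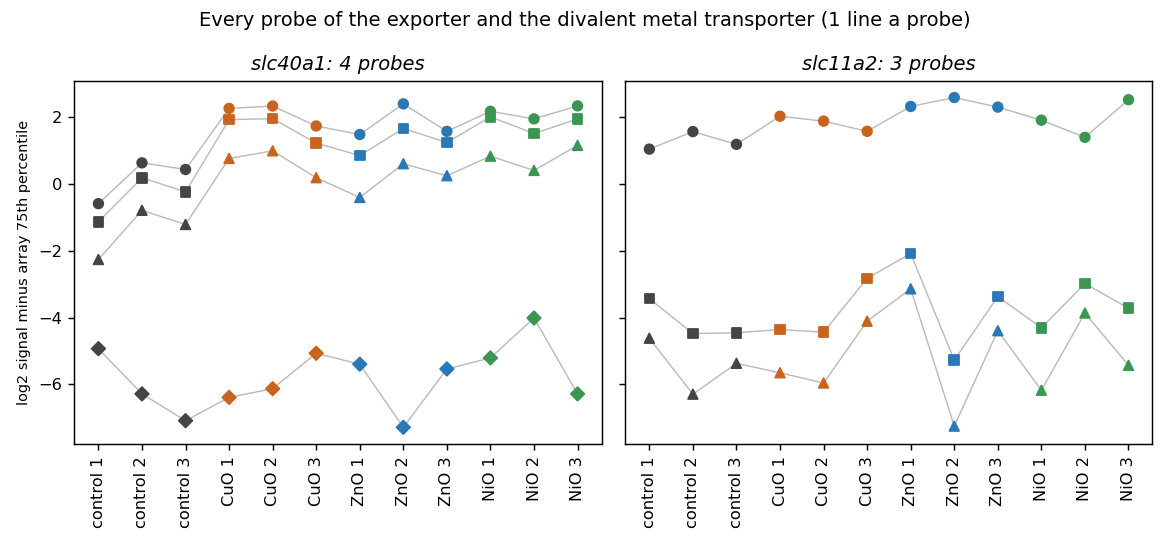
Level on each of the 12 arrays (log2 processed intensity minus the array's 75th percentile, vertical axis) for the 4 probes of slc40a1 (left) and the 3 probes of slc11a2 (right), with 1 line per probe and colours for the 4 groups. The 3 brighter slc40a1 probes run in parallel, lowest on the control arrays, while the fourth lies between -7.29 and -4.01, near background.

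Several marker lists moved with slc40a1. Over the 12 arrays its level had a Pearson r of 0.78 with the median of the gill epithelium markers, 0.74 with the myeloid markers and -0.74 with the oocyte markers. These are descriptions over arrays that share groups and slides. The gill epithelium median lay at -0.47 to 0.78 on control arrays. On CuO arrays it lay at 0.29 to 2.11, on ZnO arrays at 0.10 to 2.95 and on NiO arrays at 0.64 to 2.78. The lowest ZnO and NiO values, on ZnO 1 and NiO 1, rest on incomplete lists. The markers cldne and cldnb had no value on either array, and krt4 had none on ZnO 1. Wherever these genes had values they lay above the list median, so the overlap of ZnO 1 and NiO 1 with controls may reflect the gaps. Both medians enter the correlations with this list. The myeloid median (11 of 11 markers well above background on all arrays) was 0.91 to 2.53 in controls and 1.97 to 2.83 on the exposed arrays. The part of these lists in the slc40a1 difference was not tested. NiO 1, the exposed array with a high oocyte median of 2.61, had an slc40a1 level of 2.17, between those of the other NiO arrays at 1.95 and 2.34. Without NiO 1 the NiO difference was 1.98 (adjusted p = 0.0167).

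The calls for slc40a1 held when any single array was left out. Over the 12 arrays left out in turn the difference ran from 1.58 to 2.19 for CuO, from 1.28 to 1.90 for ZnO and from 1.62 to 2.23 for NiO, with a highest adjusted p of 0.0465. Relative to the median gene of each comparison it was 1.54, 1.34 and 1.73. Without the 4 arrays low in eye transcripts the NiO call was lost, at a difference of 2.24 and an adjusted p of 0.0594, with 2 arrays left per group. Of all 12616 genes, 2 were then called higher and 3 lower under NiO. The deposited series table, read by its column names, gave 0.70, 0.58 and 0.87 with no call, where 0 of all 12616 genes were called. In 10 of its 12 columns it holds the scanner values of another sample. Read in sample order, its columns hold the arrays slide by slide, in the order of their position on the slide. Which link of arrays to samples is right cannot be settled from the files. This applies to every call given here.

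**Figure D3:**
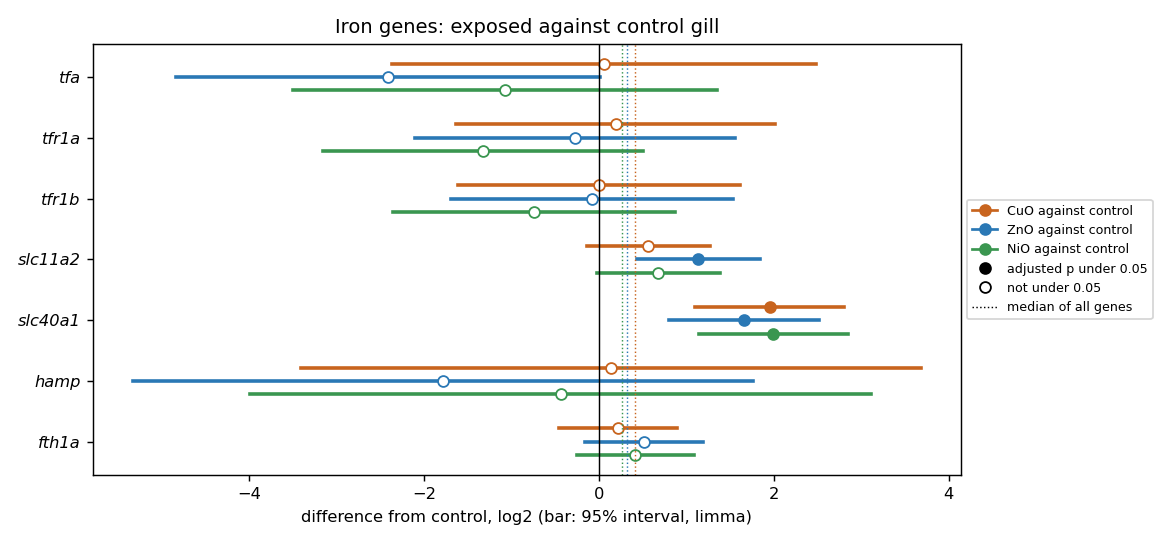
Difference from control on the log2 scale with its 95% interval (horizontal axis) for the 7 iron genes under CuO, ZnO and NiO, with a point filled where the adjusted p was under 0.05 and dotted lines at the median of all genes (0.42, 0.32 and 0.27). The 3 slc40a1 points and the ZnO point of slc11a2 are filled, and the tfa and hamp intervals are the widest.

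On the uptake side, slc11a2 encodes the proton-coupled transporter of ferrous iron, which also carries some other divalent metals. Its level was 1.04, 1.57 and 1.19 on the control arrays. It was 2.03, 1.88 and 1.58 with CuO, 2.32, 2.59 and 2.3 with ZnO, and 1.91, 1.40 and 2.52 with NiO. All ZnO arrays lay well above the controls, the CuO arrays lay just above them, and NiO 2 fell inside the control range. Of all genes, 48.2% had no overlap between CuO and control arrays, 27.4% in the higher direction, and for ZnO these shares were 42.8% and 25.6%.

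Mean levels of slc11a2 were 1.27 ± 0.27 (SD, n = 3) in controls and, in rising order, 1.83 ± 0.23 with CuO, 1.94 ± 0.56 with NiO and 2.40 ± 0.16 with ZnO. Under ZnO the difference was 1.14 (SE 0.32, 95% interval 0.43 to 1.84, limma adjusted p = 0.0261), and it was 1.28, 1.02 and 1.11 on slides 1 to 3. Under CuO it was 0.56 (adjusted p = 0.205) and under NiO 0.68 (adjusted p = 0.15), and neither passed. Between exposures ZnO differed from CuO by less than the test could call, CuO minus ZnO being -0.57 (95% interval -1.28 to 0.13, adjusted p = 0.594). ZnO minus NiO was 0.46 (95% interval -0.24 to 1.16).

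The ZnO call for slc11a2 was close to the threshold. It was lost when levels were centred on ribosomal protein genes (0.82, adjusted p = 0.0993) and when a gene's probes were averaged (0.73, adjusted p = 0.397). It was also lost without control 1 (1.03, adjusted p = 0.0826), without control 3 (1.1, adjusted p = 0.0856), without ZnO 2 (1.04, adjusted p = 0.0797) and without the 4 arrays low in eye transcripts (1.14, adjusted p = 0.0745). The other probes of the gene were dim, at levels of -7.25 to -2.09, and gave ZnO differences of 0.50 (SE 1.01) and 0.55 (SE 0.77). The slc11a2 level had an r of 0.72 with the erythrocyte markers, 0.70 with the gill epithelium markers and -0.71 with the oocyte markers over the 12 arrays. The erythrocyte median was -3.11 to -0.97 in controls and -1.80 to 0.69 under ZnO, and its part in the difference was not tested.

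Transferrin receptors bring transferrin-bound iron into cells by endocytosis. In zebrafish tfr1a is the copy that developing red cells need, and tfr1b is its more broadly used paralog. The level of tfr1a was -3.84, -4.05 and -3.32 on the control arrays. It was -4.33, -4.77 and -1.54 with CuO, -5.49, -3.22 and -3.32 with ZnO, and -5.27, -5.02 and -4.91 with NiO. The level of tfr1b was -3.19, -3.43 and -3.58 on the control arrays. It was -4.00, -4.42 and -1.79 with CuO, -2.38, -3.21 and -4.85 with ZnO, and -4.51, -4.15 and -3.78 with NiO. CuO 3 was the highest array for both genes, while the other CuO arrays lay below all controls.

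All NiO arrays lay below all control arrays for both receptors, yet neither passed the test. The NiO difference was -1.33 for tfr1a (SE 0.82, 95% interval -3.15 to 0.50, adjusted p = 0.271) and -0.75 for tfr1b (SE 0.73, adjusted p = 0.490). The spread behind these SEs is shared by all 4 groups and was wide mainly in CuO and ZnO. For tfr1a the SD was 0.18 in NiO and 0.37 in controls, against 1.75 in CuO and 1.28 in ZnO. For tfr1b it was 0.36 and 0.20, against 1.41 and 1.26. Non-overlap with controls in either direction held for 42.5% of all genes under NiO, of which 22.9% of all genes lay higher and the rest lower, as the receptors did. Under CuO the differences were 0.19 for tfr1a (adjusted p = 0.871) and 0.00 for tfr1b (adjusted p = 1.00). Under ZnO they were -0.27 (adjusted p = 0.831) and -0.08 (adjusted p = 0.948). Each receptor gene has 1 probe, so no second probe was at hand to compare.

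Ferritin heavy chain oxidises ferrous iron for storage in the ferritin shell, and fth1a is one of its zebrafish genes. Its level was 4.33, 4.6 and 4.24 on the control arrays. It was 4.33, 4.57 and 4.91 with CuO, 5.04, 5.07 and 4.6 with ZnO, and 4.45, 5.33 and 4.64 with NiO. The groups overlapped or, for ZnO, touched at the rounded value. Differences were 0.22 under CuO (adjusted p = 0.609), 0.51 under ZnO (95% interval -0.16 to 1.19, adjusted p = 0.237) and 0.42 under NiO (adjusted p = 0.348). All 3 probes of the gene gave differences of 0.06 to 0.22, 0.39 to 0.54 and 0.35 to 0.63 for CuO, ZnO and NiO, with a lowest adjusted p of 0.164. The whole range of fth1a over 12 arrays spanned 1.1.

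Transferrin, the plasma iron carrier, is made mainly in the liver. Its gene tfa had levels of 3.86, 4.81 and 5.45 on the control arrays. They were 4.68, 4.65 and 4.98 with CuO, -0.46, 2.64 and 4.69 with ZnO, and 3.86, 2.33 and 4.71 with NiO. ZnO 1 stood apart below all other arrays, and NiO 2 and ZnO 2 were next lowest. The control mean was 4.71 ± 0.80 (SD, n = 3), and the exposed means were 4.77 ± 0.18 with CuO, 2.29 ± 2.59 with ZnO and 3.63 ± 1.21 with NiO. The ZnO difference was -2.42 (SE 1.09, 95% interval -4.84 to 0.01, adjusted p = 0.128), the NiO difference -1.08 (adjusted p = 0.507) and the CuO difference 0.06 (adjusted p = 0.970).

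The ZnO value of tfa turned on single arrays. Without ZnO 1 it was -1.04 (adjusted p = 0.356), and without ZnO 3 it was -3.61 and passed the test (adjusted p = 0.0267). The 7 tfa probes gave ZnO differences of -4.04 to -1.91, with adjusted p of 0.102 to 0.201. CuO minus ZnO for tfa was 2.48, with an unadjusted p of 0.0458 and an adjusted p of 0.497, the 1 difference between exposures among the 7 genes with an unadjusted p under 0.05.

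Hepcidin, from hamp, showed the widest spread of the 7 genes. The current symbol joins entries formerly named hamp1 and hamp2, so the 4 probes are not assigned to single copies here. Its level was 1.03, 1.76 and 3.41 on the control arrays. It was 0.51, 1.93 and 4.16 with CuO, -3.35, 0.33 and 3.87 with ZnO, and 1.76, 0.39 and 2.74 with NiO. The groups overlapped throughout, and the slide 3 array was the highest in every group. Differences were 0.14 under CuO (adjusted p = 0.955), -1.78 under ZnO (SE 1.60, 95% interval -5.33 to 1.77, adjusted p = 0.436) and -0.44 under NiO (adjusted p = 0.866). Without ZnO 1 the ZnO difference was 0.034. The 4 probes gave ZnO differences of -1.78 to -1.59.

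Both liver-made genes moved with the liver markers, and with the pancreas markers too. Over the 12 arrays the Pearson r with the median liver marker was 0.95 for tfa and 0.88 for hamp, to which ZnO 1, with the lowest value on both axes, contributes. With the median of the 15 pancreas markers, which was -1.46 on ZnO 1 and 2.53 to 4.89 elsewhere, r was 0.86 for tfa and 0.81 for hamp. Once the liver median of each array was subtracted, tfa ranged from -0.21 to 2.29, a width of 2.5 against 5.91 for its level. The same step took hamp to a range of -3.18 to 0.06, a width of 3.24 against 7.51. ZnO 1 set the low end of both levels, at -0.46 for tfa and -3.35 for hamp. On the other arrays tfa lay at 2.33 to 5.45 and, after subtraction, at -0.21 to 1.72. There hamp lay at 0.33 to 4.16, and its range after subtraction was unchanged. Within CuO, hamp ran from 0.51 to 4.16 while the liver median stayed at 3.69 to 4.10. What the levels of both genes owe to the share of liver transcripts was not tested.

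**Figure D4:**
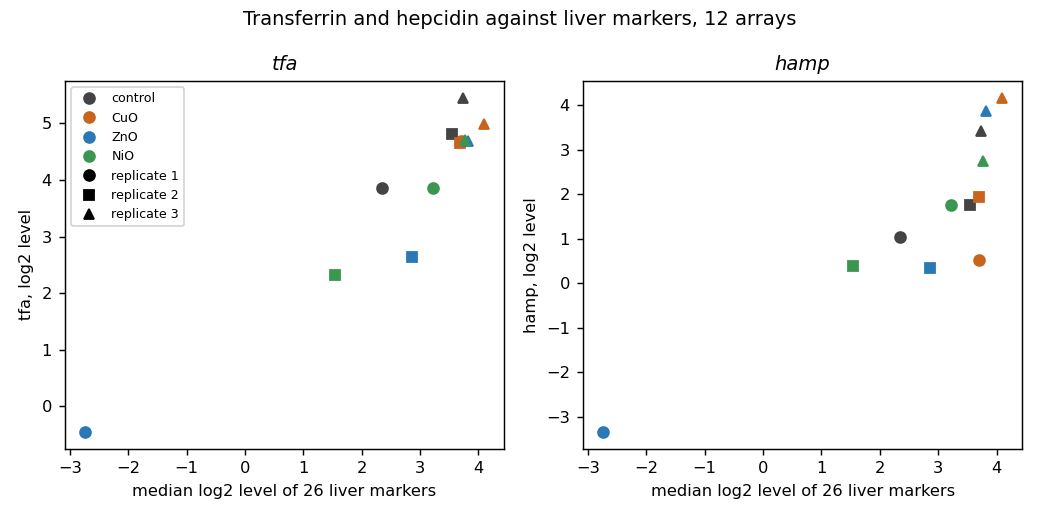
Levels of tfa (left) and hamp (right) against the median level of 26 liver markers on the same array, all on the log2 scale, with colours for the 4 groups and shapes for replicates 1 to 3. ZnO 1 lies at the lower left in both panels, at a liver median of -2.75, and the other 11 arrays lie between 1.53 and 4.10.

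The 7 genes differed in how much pools of the same group varied. The pooled within-group SD was 2.2 for hamp, 1.49 for tfa, 1.11 for tfr1a and 0.97 for tfr1b, against a median of 0.60 over all genes. It was 0.46 for slc40a1, 0.34 for slc11a2 and 0.32 for fth1a. Of all genes, 3.48% varied more than hamp and 9.93% more than tfa, while 84.5% varied more than fth1a. A difference of a given size was therefore easier to call for slc40a1, slc11a2 and fth1a than for the other 4 genes.

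The genes whose levels followed each member most closely over the 12 arrays were found by Pearson r, as a description without a test. For tfa they were pklr (r = 0.983), pnp4b and nr1h4, and for hamp shbg (r = 0.965), hao2 and cpb2. For slc40a1 they were dennd2b (r = 0.968), mvp (r = 0.964) and dennd2da (r = 0.962). For slc11a2 they were dnajc3b (r = 0.971), fhl3b and lypla2, and for fth1a tpp1 (r = 0.906), hoxa9a and tlr5b. The receptors had looser neighbours, with hnrnpc at 0.815, fggy and ednraa for tfr1a and pudp at 0.830, prpf4bb and zbed4 for tfr1b.

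A wider list of iron genes placed the 7 in their pathway. It held 61 genes, of which 39 were on the array under a current symbol and all 39 were tested. Under CuO 1 was called higher and 5 lower, under ZnO 2 higher and 5 lower, and under NiO 2 higher and 5 lower. The background shares called were 11.4% higher and 13.7% lower under CuO, 13.8% and 11.9% under ZnO, and 10.1% and 12.1% under NiO. The median difference over the list was 0.31, 0.37 and 0.26, close to that of all genes. No call fell among the 3 uptake and reduction genes, the 7 storage genes, the 9 genes of hepcidin control, the 1 copper oxidase or the 1 iron sensor tested.

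Of the 9 genes for mitochondrial iron and iron-sulfur cluster assembly, 3 fell in each comparison, and they were the same genes each time: hscb, bola3 and fxn. The comparisons share their controls, and 9.43% of all genes were called lower in all 3, against 4 of the 39 genes of the wider list. The co-chaperone gene hscb, whose product hands new iron-sulfur clusters to their targets, had levels of 0.50, 0.89 and 0.78 in controls. Its levels were -2.14, -1.51 and -2.45 with CuO, -1.82, -2.36 and -1.72 with ZnO, and -1.27, -2.59 and -1.88 with NiO. It fell in all 3 comparisons, with log2 differences of -2.76 for CuO, -2.69 for ZnO and -2.64 for NiO (SE 0.38 each, adjusted p = 0.00188, 0.00215 and 0.00415).

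The cluster delivery factor bola3 was at 1.71 ± 0.08 (SD, n = 3) in controls and at -0.05 ± 0.45, 0.23 ± 0.13 and 0.28 ± 0.09 under CuO, ZnO and NiO. It fell, with log2 differences of -1.77, -1.48 and -1.43 (adjusted p = 0.00227, 0.00477 and 0.00731). Frataxin, fxn, an iron-sulfur assembly factor, fell too, with differences of -1.88, -1.27 and -1.44 (SE 0.41, adjusted p = 0.00910, 0.0444 and 0.0314). With the slide as a replicate block the fxn calls under ZnO and NiO were lost, at adjusted p of 0.0756 and 0.0575. Both were also lost without the 4 arrays low in eye transcripts (limma adjusted p = 0.0823 and 0.0929). The ZnO call was lost too with quantile normalization (limma adjusted p = 0.0618) and with averaged probes (0.0576).

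Among the 9 heme genes, slc48a1a, a heme transporter, rose in all 3 comparisons. Its levels were -3.34, -2.72 and -3.85 in controls and between -2.20 and -1.62 on the 9 exposed arrays. The differences were 1.22, 1.5 and 1.5 on the log2 scale (SE 0.30, adjusted p = 0.0159, 0.00735 and 0.00974). The CuO call was lost with ribosomal centring (0.91, adjusted p = 0.0587). Without the 4 arrays low in eye transcripts the calls were lost under CuO (0.92, adjusted p = 0.102), ZnO (1.22, adjusted p = 0.0584) and NiO (1.13, adjusted p = 0.0919). Its paralog slc48a1b fell under CuO and NiO, with differences of -1.32 and -1.35 (adjusted p = 0.0472 and 0.0471), and both calls were lost with the replicate block (adjusted p = 0.0726 and 0.0732). The ZnO difference of slc48a1b was close to these, at -1.27, and just missed the threshold (adjusted p = 0.0522).

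Biliverdin reductase, blvra, which turns the heme breakdown product biliverdin into bilirubin, fell with differences of -2.43 for CuO, -2.05 for ZnO and -1.82 for NiO (SE 0.46, adjusted p = 0.00534, 0.0117 and 0.0209). The heme oxygenase gene hmox2a rose by 1.48 under ZnO and 1.26 under NiO (adjusted p = 0.0157 and 0.0319), and neither call held when its probes were averaged (0.93 and 1.12). Its CuO difference was 1.05 and was not called (adjusted p = 0.0568). The folate and heme carrier gene slc46a1 fell under ZnO, with a difference of -2.12 (SE 0.64, adjusted p = 0.0354). That call was lost with quantile normalization (limma adjusted p = 0.0518) and with array weights (0.0657). It was also lost without the 4 arrays low in eye transcripts (-1.42, limma adjusted p = 0.155). No call was made for slc46a1 under CuO (-1.36, limma adjusted p = 0.140) or NiO (-1.51, limma adjusted p = 0.116).

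Leaving out single arrays ended none of the hscb and bola3 calls. The slc48a1a call under CuO was lost without control 3 (0.94, adjusted p = 0.0638) and without CuO 2 (1.18, adjusted p = 0.0526). The blvra call was lost under ZnO without control 3 (-1.85, adjusted p = 0.0511), and under NiO without control 1 (-1.88, adjusted p = 0.0505) or control 3 (-1.62, adjusted p = 0.0833). The slc46a1 call was lost without control 1, control 3, ZnO 1 or ZnO 2. The hmox2a calls were lost without control 1 or control 3, and also without ZnO 2 for ZnO and without any of the NiO arrays for NiO. The slc48a1b calls and the fxn calls under ZnO and NiO were lost without any single control array and without several exposed arrays. Leaving out 1 array of the 12 took the adjusted p for these genes to at most 0.146.

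The oocyte medians of 3.98 to 4.15 on controls and -5.69 to -3.79 on 8 exposed arrays stand beside these lower calls as well. On NiO 1, with an oocyte median of 2.61, blvra was at -1.34 and hscb at -1.27, in each case the highest of the 9 exposed arrays and still below all controls. On the same array fxn was at -0.29, below ZnO 2 alone among the exposed arrays (0.06). There bola3 was at 0.37, below only CuO 2 at 0.44 and ZnO 1 at 0.38. The slc48a1b level was -0.21, inside the range of the other exposed arrays (-0.64 to 0.76). The link of these genes with the oocyte transcripts was not tested further. Without NiO 1 the NiO differences were -2.96 for hscb, -1.48 for bola3, -1.63 for fxn, -2.23 for blvra and 1.51 for slc48a1a. Without the 4 arrays low in eye transcripts, 0 of the 39 genes were called under NiO, where 5 of all 12616 genes were then called.

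**Figure D5:**
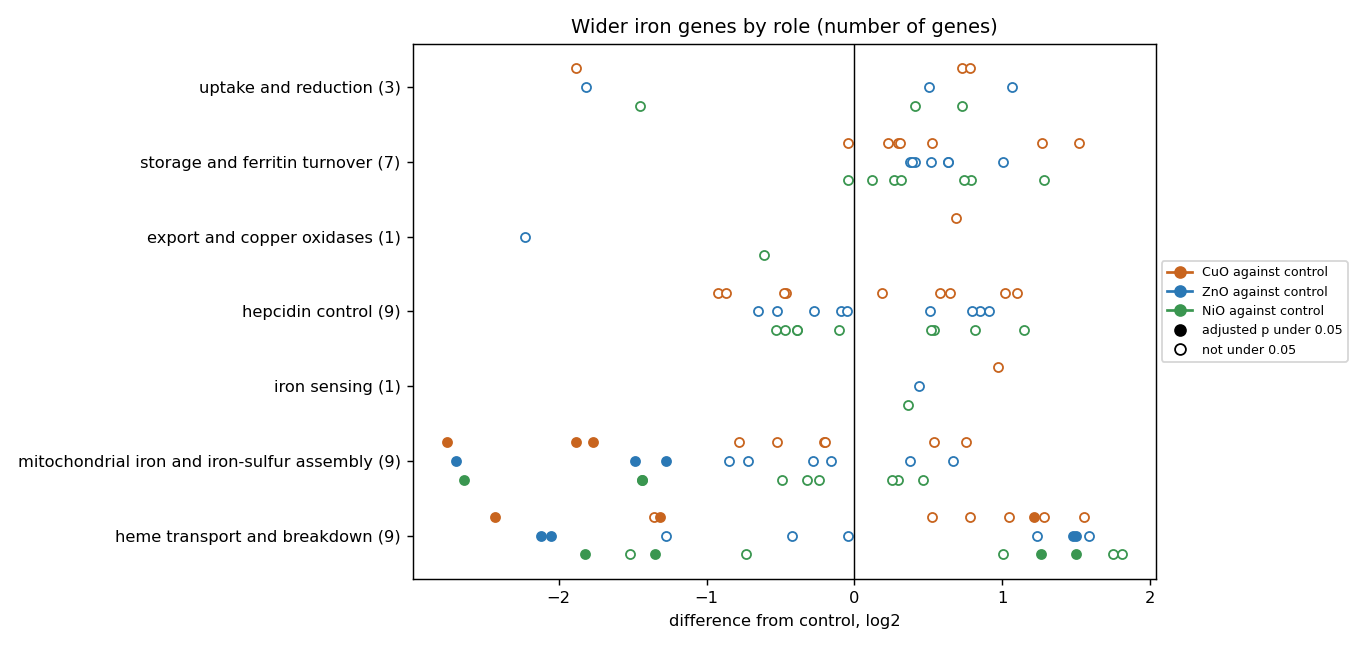
Difference from control on the log2 scale (horizontal axis) for the 39 tested genes of the wider iron list, grouped by role with the number of genes in brackets, 1 point per gene and exposure, filled where the adjusted p was under 0.05. Filled points occur in the rows of mitochondrial and iron-sulfur genes, all below 0, and of heme genes, on both sides of 0.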

How the data were processed

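Gill RNA from 12 pools was labelled with cyanine 3 and hybridised to Agilent zebrafish arrays, per the labels' protocols. A dye swap is named in the labels, yet only 1 channel is in each scanner file. Per the file headers, Feature Extraction gave a background-subtracted processed intensity per spot and flags, on annotation of the danRer7 (Zv9) build. The submitters' processing notes name MAS5, with no role stated. A deposited table for the whole series holds the same intensity averaged per probe, but 10 of its 12 columns match the scanner file of another sample, so the scanner files were used. Which link between arrays and samples is right cannot be settled from the files. Read by the table's column names, 0 of all 12616 genes were called against control, and so none of the 7 genes or of the wider list.

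Outlier and control spots were left out, spots of a probe were averaged, and log2 of the deposited intensity minus the array's 75th percentile was analysed. Of 43603 probes, 27655 carry a RefSeq accession, and 26094 matched 1 current gene symbol of the GRCz12tu annotation. Probes well above background on all 3 arrays of a group, with at least 2 values in every group, were tested (37130, for 12616 genes), with the brightest probe per gene. A single limma fit (limma 3.58.1, R 4.3.3) of 4 group means gave 6 contrasts, and the fit was tested on simulated data. Replicates are separate pools, 3 per group, and this small number limits the precision. The members, the lists and the alternatives were chosen with earlier results of these data known. Named were all members with every probe, called genes of the wider list (up to 10 a comparison by size), and the 3 best-correlated named genes per member. Per the file headers each replicate number is 1 slide with 1 array of every group. Same-numbered arrays correlated in their deviations from the group means at -0.58 to 0.48 (median 0.01, 18 pairs). The alternatives were normexp background correction (offset 50, on median spot signals), the 75th percentile over probes detected on all arrays, and quantile and ribosomal scaling. Others were no filter and a stricter filter on dim probes, probe averaging, array weights, the slide block, leaving out arrays and the deposited series table.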

Additional observations from a re-analysis of the deposited data

How the results depend on the processing

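Single-gene results kept their direction and side of the threshold in 788 alternatives and reversed in 53, where some calls of the main fit were lost too. With the direction kept, a call was lost in 99 and gained in 3. These totals also count results with no call in the main fit. They include alternatives that leave out an array of a group outside the comparison, where the difference cannot change. With array weights, 3692 of all 12616 genes were called higher and 2547 lower under CuO, and 2295 higher and 1982 lower under NiO. In the main fit these were 1439 and 1723 under CuO, and 1280 and 1525 under NiO. With the weights the number of the 7 genes called rose to 2 under CuO and under NiO, where slc11a2 was added. It fell to 1 under ZnO with ribosomal centring, with averaged probes, without the 4 arrays low in eye transcripts and when most of a gene's probes had to be called, and to 0 under NiO without those 4 arrays. The deposited series table as labelled gave 0 in each comparison, and it called 0 of all 12616 genes against control. Leaving out 1 array gave 1 to 1, 1 to 3 and 1 to 1 calls, and 0 between exposures. The slide as replicate block changed no member's call (slc40a1 adjusted p = 0.0106, 0.0184 and 0.0143; slc11a2 under ZnO 0.0488) and, of the others named, ended those of fxn under ZnO and NiO and of slc48a1b under CuO and NiO. The wider list had 17 calls among 39 genes under CuO with array weights, which also raised the calls over all genes as given above. It had 0 in the series table, and 0 under NiO without the 4 arrays, where 2 of all 12616 genes were called higher and 3 lower. Leaving out 1 array gave 4 to 8, 3 to 9 and 3 to 9. Calls over all genes moved too, under NiO from 309 higher and 652 lower without control 3 to 1378 higher and 1557 lower without ZnO 2.

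Ribosomal centring moved the median difference of all genes from 0.42, 0.32 and 0.27 to 0.11, 0.0036 and 0.075, and the share of calls that were higher from 45.5, 53.5 and 45.6% to 23.8, 30.4 and 33.8%. The percentile over detected probes changed the ZnO share to 42.1%.

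None of the reversed values passed the test. Under CuO, tfa was -0.0015 with the percentile over detected probes, -0.12 with quantile normalization, -0.24 with ribosomal centring and -0.30 with array weights. For tfr1b these were -0.065, -0.14, -0.30 and -0.55, with -0.90 without the 4 arrays and -0.89 in the series table. The ribosomal, weighted and 4-array values were -0.11, -0.69 and -0.60 for tfr1a (series table -0.11) and -0.17, -0.94 and -0.17 for hamp, and fth1a was -0.088 with ribosomal centring and -0.014 without the 4 arrays. Under ZnO, tfr1b was 0.033 with normexp and 0.099 with quantile normalization. Without the 4 arrays tfr1a was 0.67 and hamp 0.70, and hamp was 0.85 under NiO. The series table gave 0.81 for tfa, 0.73 for tfr1a, -0.041 for slc11a2 and 2.01 for hamp under ZnO, and 2.13, 1.33 and 4.22 for tfa, tfr1a and hamp under NiO. Of the wider list it gave fxn 0.22, hscb 0.56, bola3 0.38 and blvra 0.31 under CuO, and fxn 0.20, bola3 0.21 and slc46a1 0.37 under ZnO. Leaving out 1 array, CuO values ran from -0.36 to 0.44 for tfa, -0.81 to 0.80 for tfr1a, -0.81 to 0.51 for tfr1b and -0.84 to 0.98 for hamp. ZnO values ran from -0.67 to 0.47 for tfr1a, -0.63 to 0.61 for tfr1b and -3.57 to 0.034 for hamp, and NiO values from -0.99 to 0.23 for hamp. Beyond what each alternative removes, the cause was not tested.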
